A study of Mus musculus with 12 samples.

Results

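The genes described here make triacylglycerol or handle it at the lipid droplet: the acyltransferases Gpam, Gpat4, Agpat2, Mogat1, Mogat2, Dgat1 and Dgat2, the phosphatidate phosphatases Lpin1 and Lpin2, and the droplet protein Pnpla3. They were chosen by gene name for their roles in the pathway, 10 of the 34986 genes in the deposited table, and all 10 reached a normalized count of 1 in at least 6 libraries, the filter that left 19006 genes for testing. Livers came from female C57BL/6 mice of 16 weeks that received valproic acid with obeticholic acid (VPA_OCA, n = 6) or valproic acid alone (VPA, n = 6), 1 library per mouse. Both groups were given valproic acid (VPA), which is used against epilepsy and can cause fatty liver, and the second drug, obeticholic acid (OCA), separates them: it is a modified bile acid and an agonist of the farnesoid X receptor FXR, a nuclear receptor encoded by Nr1h4. The labels give neither dose nor duration, and untreated mice are not analysed here. The comparison asks which transcripts of the pathway differ when the FXR agonist is added to VPA.

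Triacylglycerol is built along a pair of routes. In the glycerol phosphate route, GPAT enzymes (Gpam, Gpat4) put the first fatty acid on glycerol 3-phosphate, AGPAT enzymes (Agpat2) add the next to give phosphatidic acid, and lipins remove the phosphate to give diacylglycerol. In the monoacylglycerol route, known best from the intestine, MGAT enzymes (Mogat1, Mogat2) make diacylglycerol from monoacylglycerol, and in both routes the DGAT enzymes (Dgat1, Dgat2) add the last fatty acid. In mouse liver, Mogat1 is a known target of PPARγ and is raised in fatty liver, and Gpam and Pnpla3 are known targets of the insulin-responsive factor encoded by Srebf1.

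The upstream sequences of 3 genes are shown. Mogat1 differed most between VPA_OCA and VPA. Gpam and Pnpla3, both known Srebf1 targets, had the most alike values across livers among the members, and neither passed between the treatments. They are RefSeq promoter windows on GRCm38.p6, the 250 bases before a transcript start, cut short where they meet an annotated exon of any gene. They are printed 5′ to 3′ on the gene's strand, and capitals mark a CCAAT box on either strand.
Mogat1, chr1:78510810-78510990, plus strand: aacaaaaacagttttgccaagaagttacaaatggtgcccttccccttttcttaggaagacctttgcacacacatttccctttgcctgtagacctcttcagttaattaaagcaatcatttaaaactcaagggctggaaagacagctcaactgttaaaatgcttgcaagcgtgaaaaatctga
Pnpla3, chr15:84167566-84167815, plus strand: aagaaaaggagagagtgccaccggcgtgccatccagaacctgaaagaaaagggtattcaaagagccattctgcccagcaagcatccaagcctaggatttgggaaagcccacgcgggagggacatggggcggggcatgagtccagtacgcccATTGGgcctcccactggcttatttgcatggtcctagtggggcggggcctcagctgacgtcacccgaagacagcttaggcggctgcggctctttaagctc
Gpam, chr19:55127239-55127488, minus strand: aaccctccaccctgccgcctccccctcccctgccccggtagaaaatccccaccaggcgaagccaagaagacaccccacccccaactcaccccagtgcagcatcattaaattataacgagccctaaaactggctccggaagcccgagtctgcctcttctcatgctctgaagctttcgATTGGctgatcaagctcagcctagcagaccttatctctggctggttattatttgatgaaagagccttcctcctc
Gpam, chr19:55099633-55099727, minus strand: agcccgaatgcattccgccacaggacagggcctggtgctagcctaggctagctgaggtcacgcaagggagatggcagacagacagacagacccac
The Pnpla3 window and the first Gpam window each hold 1 CCAAT box, found in 33.8% of the 32851 RefSeq windows of 250 bases, and the Mogat1 window of 181 bases holds none, where 25.2% of windows of that length do. The second Gpam window, of 95 bases, holds none either, where 12.9% do. None of these windows holds CACGTG (the E-box, in 6.02% of 250-base windows), TCACNCCAC (a sterol regulatory element, 1.05%), the nuclear receptor motifs built from the half-site AGGTCA, a direct repeat (0.0335%) and an inverted repeat (0.0061%), each spaced by 1 base. The 69 bases next to the Mogat1 start and the 155 bases next to the second Gpam start were cut away and not searched. The windows behind the percentages were not cut at exons. All motifs were searched on both strands, and none of them contains another. The first Gpam window belongs to a RefSeq start well upstream of the gene model in the deposited table, which starts at base 55099451 on the minus strand, and the second belongs to a RefSeq start at base 55099477, close to that of the model. The promoter table held 6 of the 10 genes.

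Mogat1 was the member with the largest difference, measuring 2.92-fold lower with OCA. Of the 6 VPA livers, 5 had clearly more Mogat1 transcript than any VPA_OCA liver, while VPA replicate 6 was as low as the VPA_OCA livers. Agpat2 measured higher with OCA, and Gpat4, Dgat1, Dgat2, Lpin1 and Lpin2 measured lower, by far smaller amounts or with wide spread. With the treatment as the only term, 0 of the 10 genes passed the threshold of 0.05 by limma with Benjamini-Hochberg adjustment over 19006 genes, against 0.721% of all genes tested (137, of which 84 were higher and 53 lower). Mogat1 passed, and was the 1 member that did so, in the fit that also held the replicate number set described next, where 2.13% of all genes passed (0.789% lower and 1.34% higher). At an unadjusted limma p under 0.05, 5 of 10 members counted (Gpat4, Agpat2, Mogat1, Dgat1, Dgat2), against 9.55% of all genes. The libraries of the treatments overlapped for each of the 10 members, and 1.44% of all genes had groups that did not overlap. Log2 fold changes were negative for 6 of 10 members and 50.1% of all genes. In the authors' deposited table, Mogat1 was the 1 gene past an adjusted p of 0.05 among the 9 members that the authors call present, against 5.57% of the 12517 genes they call present.

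The libraries differed by replicate number in a way that the treatment does not give. The first principal component held 40.4% of the variance and put numbers 1 to 3 of both groups at or below -10.3 and numbers 4 to 6 at or above 16.3, and the labels give no batch. Normalized counts summed to 20236900 to 22087711 per library, and the depth was estimated at 37699449 reads in VPA_OCA replicate 1, the deepest library, and 17879222 in VPA replicate 3, the shallowest. Hepatocyte markers (Alb, Apoa1, Ttr, Serpina1c, Tat) led in every library, with summed normalized counts of 1845380 to 3094630 in VPA_OCA and 2098830 to 3076970 in VPA. Skeletal muscle markers summed to 437 in VPA replicate 4 and to at most 22.8 in the VPA_OCA livers. That liver was not typical of its group: the median sum was 13.1 in VPA, below the 16.4 in VPA_OCA, and the lowest VPA sum was 5.27. In bulk liver RNA, fewer cells of a type and less RNA per cell cannot be told apart. P-values below measure the spread between these mice, and log2 fold changes (VPA_OCA over VPA) were computed after adding 1 to each normalized count, so changes of scarce transcripts come out too small.

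**Figure D1:**
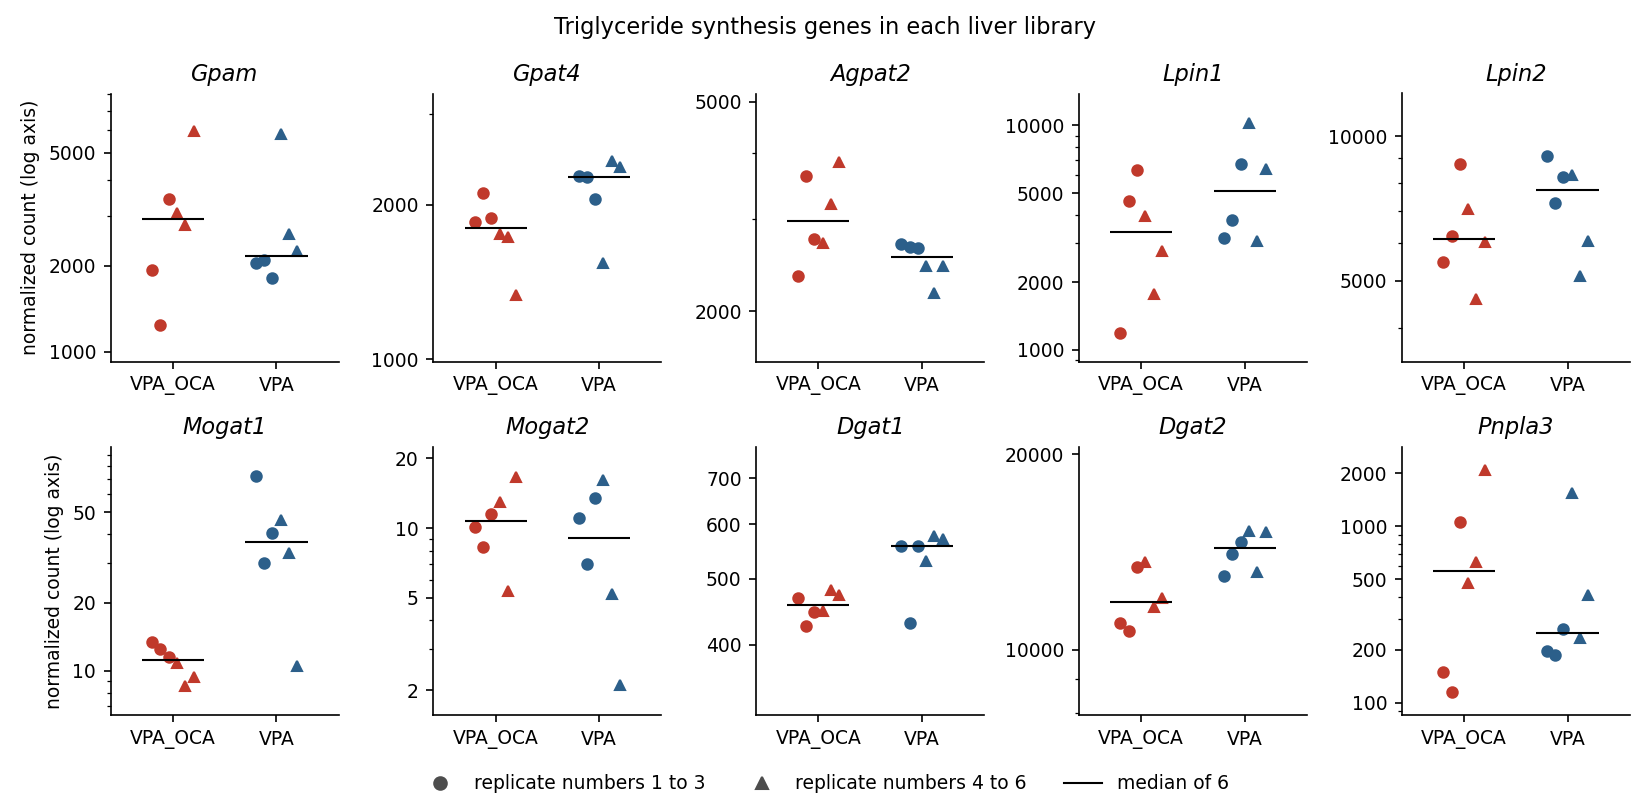
Normalized count of each of the 10 genes (log axes) in the 6 VPA_OCA and 6 VPA livers, with circles for replicate numbers 1 to 3, triangles for 4 to 6 and lines at the medians. Mogat1 sat between 8.59 and 13.4 in VPA_OCA, with VPA replicate 6 at 10.5 and the other VPA livers at 30.0 or above, while the groups of Gpam, Lpin1 and Pnpla3 overlapped widely.

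Mogat1 (ENSMUSG00000012187, chr1:78510991-78538173, plus strand, GRCm38), a monoacylglycerol acyltransferase, had normalized counts of 13.42, 12.48, 11.47, 10.82, 8.589 and 9.335 in VPA_OCA replicates 1 to 6, against 72.2, 30.0, 40.59, 46.35, 33.25 and 10.54 in VPA replicates 1 to 6. The VPA_OCA livers lay close together, and the VPA livers were spread widely. The group means were 11.02 ± 1.84 in VPA_OCA and 38.8 ± 20.4 in VPA (SD, n = 6 each). Its log2 fold change was -1.55 (SE 0.34), with a limma adjusted p of 0.0532. With a term for numbers 1 to 3 against 4 to 6 the SE was 0.31 and the limma adjusted p 0.0151, and with each replicate number as a block the SE was 0.28 and the limma adjusted p 0.0223, a fit in which Mogat1 was again the 1 member to pass, against 1.1% of all genes. The VPA_OCA liver was the lower one in 6 of 6 same-numbered pairs, with VPA_OCA over VPA ratios of 0.186 to 0.886 (median 0.270). The labels give no pairing, and for pair counts here and below the share over all genes was not counted. An exact permutation test over the 924 splits of the 12 livers gave a 2-sided p of 0.0108 for the difference of mean log2 values, and 0.01 within the number sets, where 0.005 is the smallest p possible.

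The call for Mogat1 turned on VPA replicate 6 in the fit with treatment alone. Leaving that liver out gave a log2 fold change of -1.87 and a limma adjusted p of 0.00202, and leaving out any other single liver gave an adjusted p above 0.05, up to 0.127 without VPA replicate 3. With the number set in the fit, Mogat1 passed in 12 of 12 such fits, with limma adjusted p-values of 0.000907 to 0.0402. Within numbers 1 to 3 alone the log2 fold change was -1.76 (limma adjusted p = 0.0472, 0.637% of all genes passing), and within numbers 4 to 6 it was -1.33 (limma adjusted p = 0.346, 0.5% of all genes passing). The difference between these effects was itself not past the threshold (interaction, limma adjusted p = 0.88), which 0 members and 0.0105% of all genes were. The authors' deposited table gives Mogat1 a log2 ratio of -1.215 with an adjusted p of 0.000179.

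**Figure D2:**
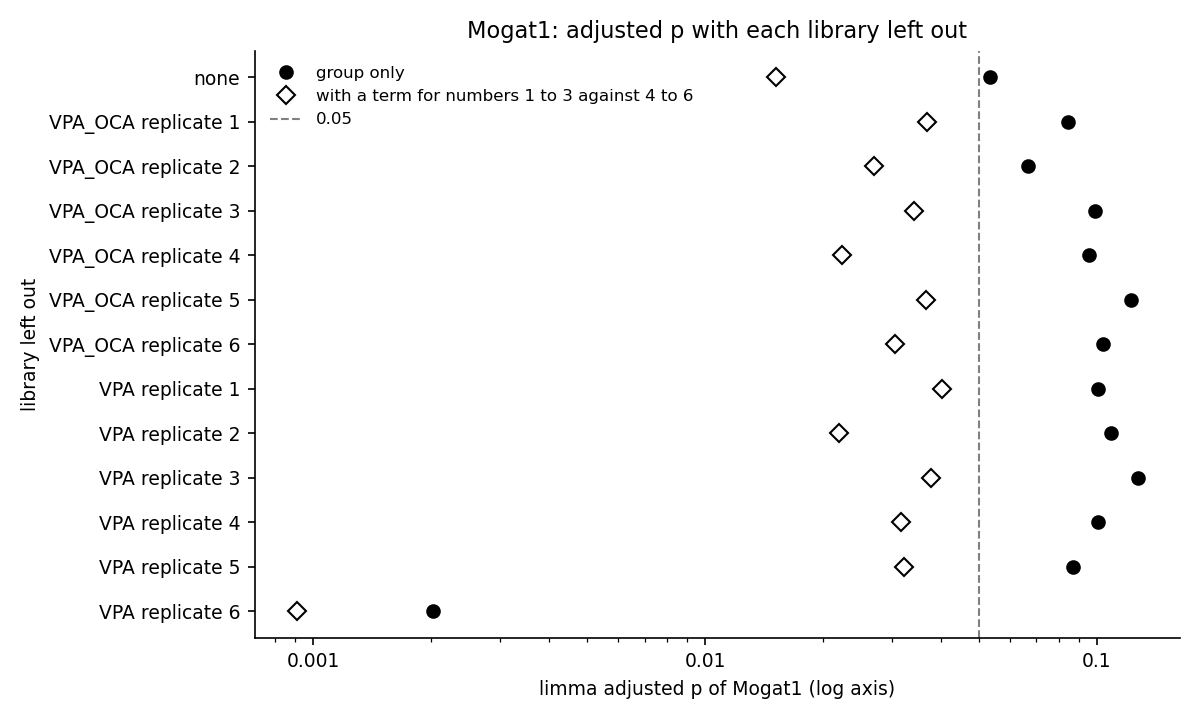
Limma adjusted p of Mogat1 (log axis) with no library or 1 library left out (rows), for the fit with treatment alone (filled circles) and with a term for numbers 1 to 3 against 4 to 6 (open diamonds), with a dashed line at 0.05. All diamonds lie below 0.05, and among the circles only that without VPA replicate 6 (0.00202) does.

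Neighbouring transcripts and marker genes were measured beside Mogat1. The first 1168 bases of its gene model lie opposite BC035947 on the minus strand, which measured 38.6 ± 11.4 in VPA_OCA and 39.3 ± 12.2 in VPA (SD, n = 6 each, limma adjusted p = 1.0), and the use of strand in counting is not known here. Of the 6 adipocyte markers, Lep, Retn and Plin1 stayed under 10 normalized counts in every liver, and the summed level ran from 69.0 to 273 in VPA_OCA and from 89.2 to 252 in VPA. Of the 5 enterocyte markers, Alpi was at 0 everywhere and Vil1, Cdh17 and Sis stayed under 10. The enterocyte sum, nearly all of it Fabp2, ran from 2655 to 6630 in VPA_OCA and from 1523 to 3156 in VPA. Fabp2, which hepatocytes also express, measured 3711 ± 1544 in VPA_OCA and 2144 ± 574 in VPA (SD, n = 6 each) and passed higher with the number set in the fit (limma adjusted p = 0.0398), the fit in which Mogat1 passed lower. Of the endothelial markers (summed level 1480 to 2205 in VPA_OCA and 1522 to 2639 in VPA), 1 of 4 passed in that fit: Lyve1 was lower, at 105 ± 23.5 in VPA_OCA and 164 ± 32.5 in VPA (SD, n = 6 each, limma adjusted p = 0.0314). No Kupffer cell, stellate or cholangiocyte marker passed, 4 of each being tested. Their summed levels overlapped, with 3028 to 5232 in VPA_OCA and 2751 to 7674 in VPA for Kupffer cells, 2666 to 3653 in VPA_OCA and 2850 to 4378 in VPA for stellate cells, and 348 to 739 in VPA_OCA and 426 to 798 in VPA for cholangiocytes. The part of these other cells in the Mogat1 values was not tested. VPA replicates 4 and 5 were the livers with the most skeletal muscle transcripts. Without them the Mogat1 log2 fold change was -1.44 (SE 0.40, limma adjusted p = 0.153). Their own Mogat1 counts were 46.35 and 33.25, and the part of muscle in the Mogat1 values was not tested.

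Mogat2 (ENSMUSG00000052396, chr7:99219084-99238619, minus strand), the MGAT enzyme best known from the small intestine, was scarcer than Mogat1 in VPA livers and near it in VPA_OCA livers. It had 10.07, 8.321, 11.47, 12.98, 5.368 and 16.6 normalized counts in VPA_OCA, against 11.03, 7.001, 13.53, 16.12, 5.196 and 2.108 in VPA. The groups overlapped almost completely. Its log2 fold change was 0.35 (SE 0.39, limma adjusted p = 0.86), with -0.04 in numbers 1 to 3 alone and 0.055 without VPA replicate 6, and the authors do not call it present. An antisense model, Gm45012, shares 7997 bases with it and averaged 1.40 in VPA_OCA and 2.46 in VPA.

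Dgat1 and Dgat2, the enzymes of the last step, are unrelated in sequence, and each measured slightly lower with OCA. Dgat2 (ENSMUSG00000030747, chr7:99153658-99182719, minus strand), which lies 36364 bases from Mogat2, had 11000, 10700, 13410, 13660, 11630 and 12030 normalized counts in VPA_OCA, against 12970, 14060, 14640, 15220, 13180 and 15160 in VPA. The VPA_OCA liver was lower in 6 of 6 same-numbered pairs, although the group ranges overlapped. The means were 12072 ± 1228 in VPA_OCA and 14205 ± 972 in VPA (SD, n = 6 each), a log2 fold change of -0.24 (SE 0.10, limma adjusted p = 0.44, exact permutation p = 0.0152).

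Dgat1 (ENSMUSG00000022555, chr15:76502015-76511951, minus strand) was the steadiest member across livers. It had 468, 426, 447, 448, 481 and 473 normalized counts in VPA_OCA, against 559, 430, 558, 531, 577 and 570 in VPA. VPA replicate 2 alone among the VPA livers fell inside the VPA_OCA range, and the VPA_OCA liver was the lower one in 6 of 6 pairs. The means were 457 ± 20.3 in VPA_OCA and 537 ± 54.9 in VPA (SD, n = 6 each), a log2 fold change of -0.23 (SE 0.09, limma adjusted p = 0.39, exact permutation p = 0.0130). The FPKM ratio of Dgat2 over Dgat1 was 25.3 ± 2.89 in VPA_OCA and 25.6 ± 3.50 in VPA (SD, n = 6 each), a difference smaller than the spread between livers.

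**Figure D3:**
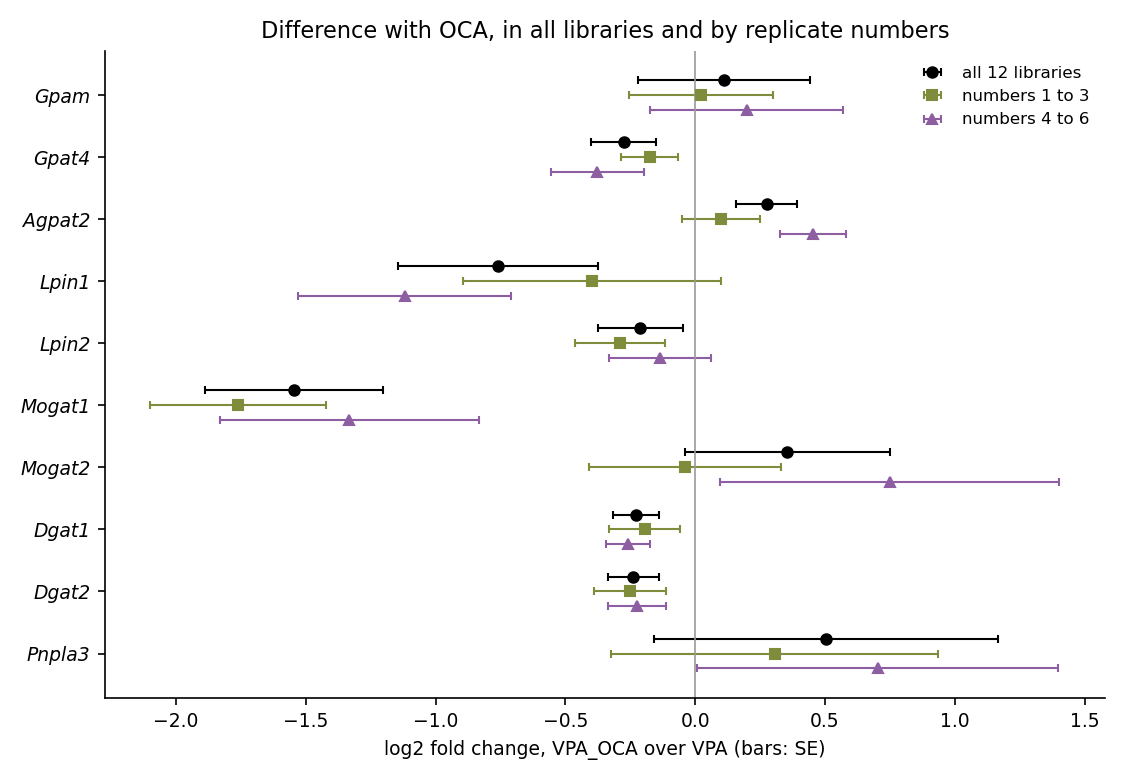
Log2 fold change of each gene, VPA_OCA over VPA, with SE bars, over all 12 livers (circles), numbers 1 to 3 (squares) and numbers 4 to 6 (triangles). Mogat1 lies farthest from 0 at -1.55, and Dgat1 and Dgat2 lie at -0.23 and -0.24 with narrow bars. The bars of Gpam, Mogat2 and Pnpla3 over all 12 livers cross 0.

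The GPAT enzymes of the first step differed from each other in how much they varied. Gpam (ENSMUSG00000024978, chr19:55069734-55099451, minus strand), the GPAT enzyme of the outer mitochondrial membrane, had 1928, 1243, 3431, 3070, 2774 and 5967 normalized counts in VPA_OCA, against 2055, 2096, 1820, 5800, 2579 and 2251 in VPA. Each group had 1 liver far above most of the rest, VPA_OCA replicate 6 and VPA replicate 4, and the pairs split evenly. Its log2 fold change was 0.11 (SE 0.33, limma adjusted p = 0.97), and -0.11 without VPA_OCA replicate 6. Gpat4 (ENSMUSG00000031545, chr8:23171265-23208346, minus strand), a GPAT enzyme of the endoplasmic reticulum, had 1853, 2103, 1880, 1757, 1728 and 1335 normalized counts in VPA_OCA, against 2273, 2259, 2054, 1537, 2437 and 2371 in VPA. Gpat4 was lower with OCA in 5 of 6 pairs, the exception being number 4. The means were 1776 ± 253 in VPA_OCA and 2155 ± 330 in VPA (SD, n = 6 each), a log2 fold change of -0.28 (SE 0.13, limma adjusted p = 0.51, exact permutation p = 0.0693).

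Agpat2 (ENSMUSG00000026922, chr2:26593057-26604417, minus strand), which converts lysophosphatidic acid to phosphatidic acid and whose loss causes lipodystrophy in mice and humans, was the member with the largest unadjusted excess in VPA_OCA relative to its error. It had 2338, 3608, 2740, 2703, 3196 and 3839 normalized counts in VPA_OCA, against 2690, 2649, 2640, 2439, 2166 and 2444 in VPA. Of the 6 VPA_OCA livers, 5 exceeded every VPA liver, and VPA_OCA replicate 1 lay among the VPA livers. The means were 3071 ± 579 in VPA_OCA and 2505 ± 198 in VPA (SD, n = 6 each), a log2 fold change of 0.28 (SE 0.12, limma adjusted p = 0.46, exact permutation p = 0.0628). Its end overlaps that of Egfl7 on the opposite strand by 64 bases, and Egfl7 measured 460 ± 98.3 in VPA_OCA and 494 ± 47.2 in VPA (SD, n = 6 each).

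The lipins, which also act as transcriptional coactivators in liver, measured lower in VPA_OCA in 5 of 6 pairs each, and neither passed the test. Lpin1 (ENSMUSG00000020593, chr12:16535669-16610966, minus strand), the lipin that responds to fasting in mouse liver, had 1193, 4627, 6325, 3964, 1783 and 2757 normalized counts in VPA_OCA, against 3153, 3793, 6701, 10280, 3053 and 6377 in VPA. Livers differed more within each group than the groups did, and same-numbered livers tended to be high or low together. The means were 3442 ± 1911 in VPA_OCA and 5560 ± 2809 in VPA (SD, n = 6 each), a log2 fold change of -0.76 (SE 0.38, limma adjusted p = 0.56, exact permutation p = 0.132). With the replicate number as a block the SE was 0.20 and the limma adjusted p 0.125. Lpin2 (ENSMUSG00000024052, chr17:71182560-71249817, plus strand), the more abundant lipin in these livers, had 5464, 6213, 8752, 7039, 4581 and 6023 normalized counts in VPA_OCA, against 9085, 7276, 8207, 8296, 5118 and 6058 in VPA. The ranges overlapped, and the log2 fold change was -0.21 (SE 0.16, limma adjusted p = 0.77). The FPKM ratio of Lpin2 over Lpin1 had a median of 3.54 in VPA_OCA and 2.60 in VPA. Its size depends on the authors' lengths, 1864 bases for Lpin2 and 3336 for Lpin1.

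Pnpla3 (ENSMUSG00000041653, chr15:84167816-84189512, plus strand), a lipid droplet protein with lipase activity, varied most of all members. It had 148, 114, 1065, 478, 632 and 2102 normalized counts in VPA_OCA, against 197, 187, 261, 1555, 233 and 406 in VPA, an 18.4-fold span over the 12 livers. It was the 1 member whose livers spanned at least 10-fold, against 3.36% of all genes. Its highest and lowest livers were both VPA_OCA livers. The medians were 555 in VPA_OCA and 247 in VPA, and the pairs split evenly, with a log2 fold change of 0.50 (SE 0.66, limma adjusted p = 0.89). That value was 0.95 without VPA replicate 4 and 0.076 without VPA_OCA replicate 6.

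Gpam and Pnpla3 were the 2 of 10 members that passed for numbers 4 to 6 over numbers 1 to 3, both higher. The fit had treatment as the other term, and 25.1% of all genes passed in it (12.8% higher and 12.2% lower). Passing in 2 of 10 members is thus near the share over all genes. Gpam averaged 3937 ± 1764 in numbers 4 to 6 and 2201 ± 1119 in numbers 1 to 3 of VPA_OCA. In VPA it averaged 3543 ± 1961 in numbers 4 to 6 and 1990 ± 149 in numbers 1 to 3 (SD, n = 3 each). Its log2 difference was 0.79 (SE 0.26, limma adjusted p = 0.0343). Pnpla3 averaged 1071 ± 896 in numbers 4 to 6 and 443 ± 539 in numbers 1 to 3 of VPA_OCA. In VPA it averaged 731 ± 719 in numbers 4 to 6 and 215 ± 40.1 in numbers 1 to 3 (SD, n = 3 each), and its log2 difference was 1.51 (SE 0.53, limma adjusted p = 0.0482). Both calls rest on few livers: with 1 liver left out, Gpam passed in 6 of 12 fits and Pnpla3 in 3 of 12 (only without VPA replicate 5 or VPA_OCA replicate 3 or 4). The highest limma adjusted p-values, 0.0860 for Gpam and 0.118 for Pnpla3, came without VPA_OCA replicate 6, and Gpam also lost its call without VPA_OCA replicates 1 or 2 or VPA replicates 1, 3 or 4. What the numbers stand for is not given in the labels, and its part in these values was not tested. Srebf1, which encodes the lipogenic transcription factor named above, rose in numbers 4 to 6 by 1.02 on the log2 scale (limma adjusted p = 0.000523, and past the threshold in 12 of 12 fits with 1 liver left out) and measured 7989 ± 3094 in VPA_OCA and 6100 ± 2381 in VPA (SD, n = 6 each, limma adjusted p = 0.79).

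The same livers were high for Gpam and for Pnpla3. Over the 6 livers of numbers 4 to 6, Pearson's r of their log2 values was 0.923 (exact permutation p = 0.0208) and Spearman's rho 0.886 (exact permutation p = 0.0333). Over the 6 livers of numbers 1 to 3, r was 0.895 (exact permutation p = 0.0236) and rho 0.6 (exact permutation p = 0.242). Without the 2 livers farthest from the median of Gpam, r was 0.36 in numbers 4 to 6 and -0.43 in numbers 1 to 3, so the relation rests on those livers. Gpam and Gpat4 gave r of -0.872 in numbers 4 to 6 (exact permutation p = 0.0417) and -0.338 in numbers 1 to 3. Lpin1 and Dgat2 gave 0.949 in numbers 4 to 6 (exact permutation p = 0.00278) and 0.579 in numbers 1 to 3. The r values here pooled both treatments with their means left in, so differences between treatments enter r and its p. Lpin1 and Dgat2 both measured lower in VPA_OCA in numbers 4 to 6 (log2 fold changes -1.12 and -0.22). With the means of treatment and number set subtracted, their r over the 12 livers was 0.728. Srebf1 gave r of -0.307 with Gpam and -0.169 with Pnpla3 in numbers 4 to 6 (exact permutation p = 0.557 and 0.756). In numbers 1 to 3 it gave 0.694 and 0.552 (exact permutation p = 0.115 and 0.265). The part of Srebf1 in the Gpam and Pnpla3 values was not tested. Of 110 relations among the members and Srebf1, none passed Benjamini-Hochberg adjustment, and the lowest adjusted p was 0.306. With 6 livers a lone relation could not have passed, since the smallest exact p of 0.00139 gives an adjusted p of 0.153 when no other relation is as low.

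**Figure D4:**
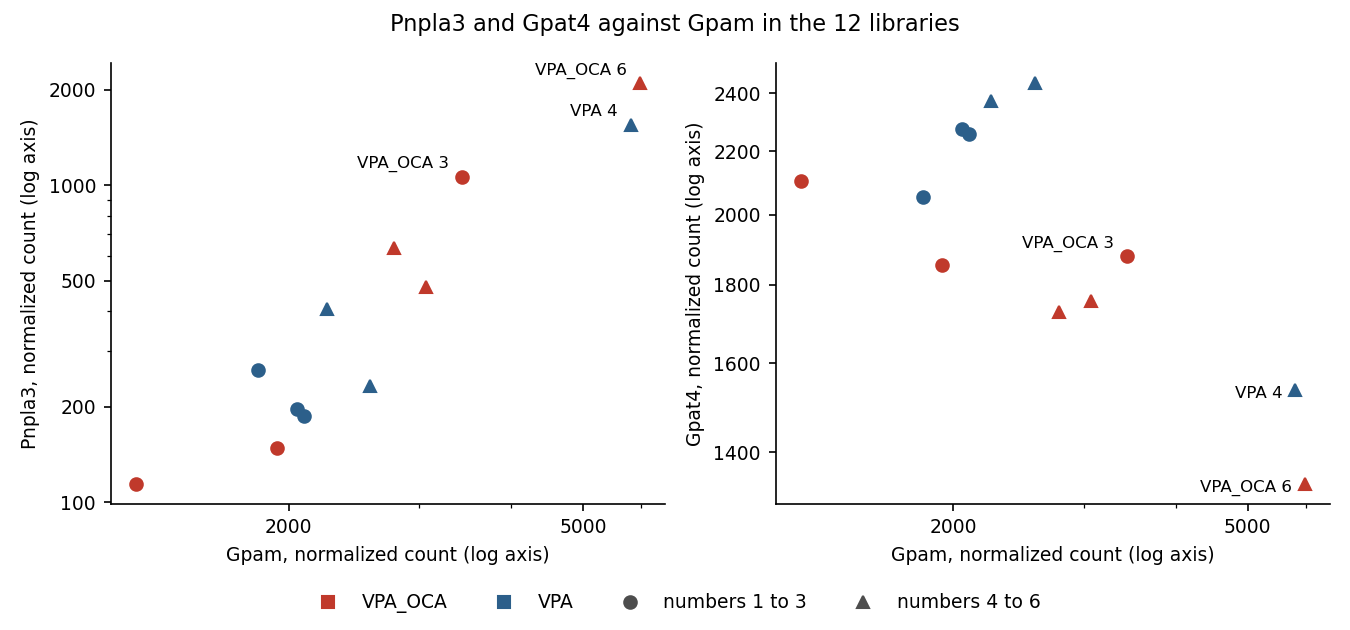
Normalized counts of Pnpla3 (left) and Gpat4 (right) against Gpam (log axes) in the 12 livers, coloured by treatment, with circles for replicate numbers 1 to 3 and triangles for 4 to 6. VPA_OCA replicate 6 (Gpam 5967, Pnpla3 2102) and VPA replicate 4 (5800, 1555) are highest for both genes and lowest for Gpat4 (1335 and 1537).

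Levels between genes were compared per length, on the authors' FPKM scale. The lengths used ran from 798 bases for Mogat1 to 4640 for Pnpla3. They are the authors' and were not checked against transcripts, so the order holds for those lengths only. Dgat2 led with a median of 686 FPKM over the 12 livers (537 to 806) and did not overlap any other member. Lpin2 (median 164 FPKM), Agpat2 (129), Lpin1 (55.4), Gpat4 (46.4), Gpam (29.3) and Dgat1 (25.9) followed, and neighbours in that order overlapped in range. Dgat1 (22.3 to 31.0 FPKM) stood just above Pnpla3 (median 3.26, 1.12 to 21.6). Mogat1 (median 0.753 FPKM, 0.503 to 4.09) and Mogat2 (median 0.457, 0.0897 to 0.743) were the scarcest and overlapped each other. Even in the highest VPA liver the Mogat1 level stayed below the lowest Dgat1 level.

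**Figure D5:**
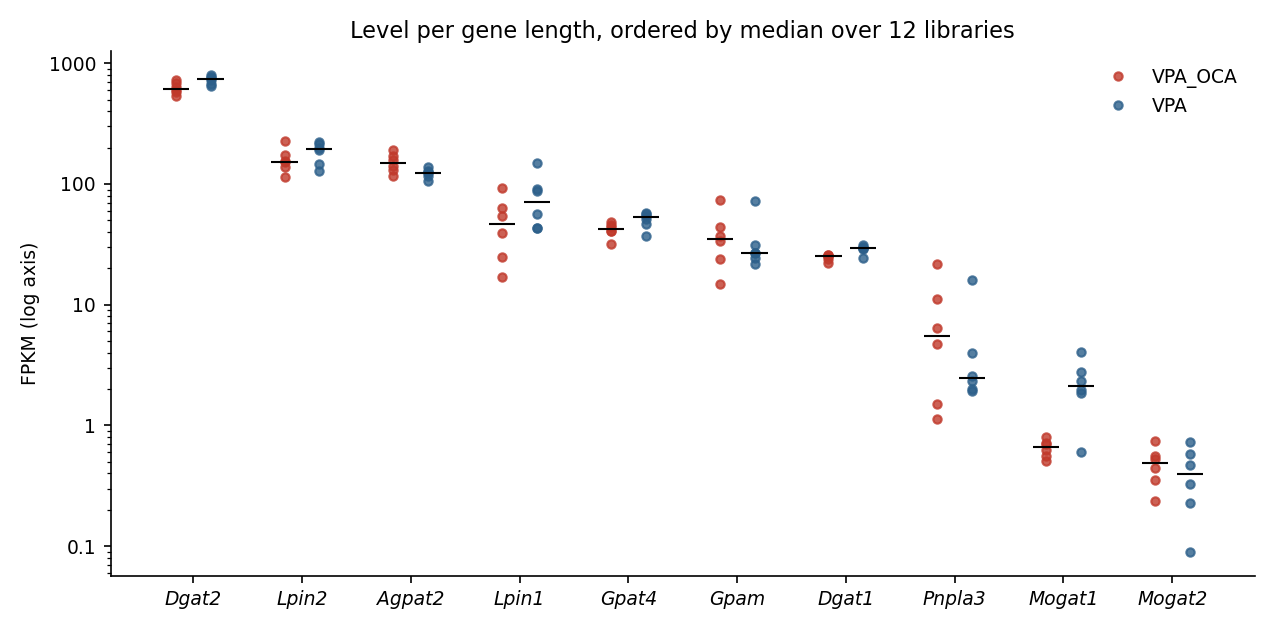
FPKM (log axis) of the 10 genes in VPA_OCA (red) and VPA (blue) livers, 1 point per liver with lines at group medians, ordered by the median over all 12. Dgat2 stands alone near 686 FPKM, and both MGAT genes lie lowest, at medians of 0.753 (Mogat1) and 0.457 (Mogat2).

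The likeness of patterns was described by Pearson's r over the 12 livers after subtracting the mean of each treatment and number set, so that it reflects variation between livers alone. Gpam and Pnpla3 were each other's closest member at 0.911, Lpin1 and Lpin2 at 0.778, and Mogat1 and Mogat2 at 0.737. Among VPA_OCA livers Mogat1 varied little, from 11.47 to 13.42 in numbers 1 to 3 and from 8.589 to 10.82 in numbers 4 to 6. The r values of Mogat1 here therefore rest mainly on the VPA livers. With treatment means left in, Mogat1 and Mogat2 gave r of only 0.233 in numbers 1 to 3 and 0.212 in numbers 4 to 6. Only positive r counted as likeness, and by that measure Gpat4 had no close member, with 0.0517 to Dgat1 the highest. With treatment means left in, Gpat4 ran opposite to Pnpla3, with r of -0.926 in numbers 4 to 6 and -0.416 in numbers 1 to 3. Over 12045 named protein-coding genes, those most like Mogat1 were Adck1 (0.945), Alg13 (0.940), Appl1 (0.933), mt-Co1 (0.931) and Spata22 (0.926). These values are a description, and the highest of so many are high by selection.

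Another 28 genes of the pathway were listed by role and all 28 were tested, among them further GPAT, AGPAT and phosphatase enzymes, suppliers of glycerol phosphate and acyl-CoA, and lipases. With treatment alone 0 passed by limma, 7 had an unadjusted p under 0.05, and 9 log2 fold changes were positive and 19 negative (median -0.12), where 9.55% of all genes had such a p and 50.1% a negative value. With the number set in the fit 1 passed, Ces1d, a triacylglycerol hydrolase of the hepatocyte endoplasmic reticulum. Ces1d had a median normalized count of 16495 in VPA_OCA (11710 to 26880) and 24175 in VPA (15070 to 40600). Its log2 fold change was -0.57 (SE 0.14, limma adjusted p = 0.0423 with the number set and 0.47 without). With the replicate block it did not pass (limma adjusted p = 0.125). With the number set and 1 liver left out it passed in 4 of 12 fits (those lacking number 2 or number 4 of either treatment), with a highest adjusted p of 0.114 without VPA replicate 6. It is one of a cluster of similar carboxylesterase genes between which reads could be divided. The next by p did not pass in either limma fit: Gpat3, a GPAT enzyme, measured 199 ± 27.6 in VPA_OCA and 254 ± 23.7 in VPA, and Plpp2, a lipid phosphate phosphatase, 698 ± 73.3 in VPA_OCA and 551 ± 63.5 in VPA (SD, n = 6 each). Lpin3, the remaining lipin, measured 132 ± 20.2 in VPA_OCA and 94.2 ± 37.1 in VPA, and Abhd5, the coactivator of the lipase Pnpla2, 903 ± 285 in VPA_OCA and 647 ± 81.2 in VPA (SD, n = 6 each). The authors' deposited table has 2 of 27 present genes of this list higher (Plpp2, Abhd5) and 2 lower (Gpat3, Ces1d) at an adjusted p under 0.05, against 5.57% of all genes they call present. By number set, Plpp2 passed in numbers 4 to 6, with 777, 756 and 754 in VPA_OCA and 465, 488 and 549 in VPA (log2 fold change 0.61, limma adjusted p = 0.0299), and its log2 fold change was 0.08 in numbers 1 to 3. Gpd1, which makes glycerol 3-phosphate and is named here after its values were seen, passed in numbers 1 to 3, with 3517, 3248 and 2452 in VPA_OCA and 6429, 5512 and 4677 in VPA (log2 fold change -0.85, limma adjusted p = 0.0445), and its log2 fold change was close to 0 in numbers 4 to 6. Neither difference between the sets passed (interaction, limma adjusted p = 0.338 for Plpp2 and 0.272 for Gpd1). Of 12 regulators listed, among them Srebf1, Mlxipl, Ppara, Pparg, Nr1h4 and Nr0b2, 0 passed by limma with treatment alone or with the number set, with 0 and 3 at an unadjusted p under 0.05, against 9.55% and 14.5% of all genes in those fits. Pparg, which encodes the receptor known to drive Mogat1, measured 155 ± 29.8 in VPA_OCA and 174 ± 35.4 in VPA (SD, n = 6 each). Its direction differed by number set: in numbers 1 to 3 it had 149, 129 and 116 in VPA_OCA and 205, 188 and 214 in VPA, and in numbers 4 to 6 it had 163, 183 and 192 in VPA_OCA and 167, 150 and 120 in VPA (interaction, limma adjusted p = 0.252). Nr1h4, the target of OCA, measured 2250 ± 372 in VPA_OCA and 2746 ± 556 in VPA (SD, n = 6 each).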

How the data were processed

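Total liver RNA of 12 mice was sequenced after TruSeq library preparation, per the labels' protocols. The submitters' processing notes name edgeR, without a version, and the build GRCm38.p5; the sources used here give no aligner, counter or use of strand. The deposited table holds a normalized count per gene and library, a signal scaled by the authors per the file headers, and FPKM values of the authors. It also holds the authors' log2 ratios, p-values and adjusted p-values, and a GC fraction per gene, per the file headers. Low values lay within 0.1 of a whole multiple of 1 read in 80.3% to 84.9% of cases, so no count model was used. Cells with a decimal comma and exponent (10536 log2 ratios, 238 p-values, 88 adjusted p-values and 89 normalized counts) were divided by 1000, and 26 symbols turned into dates were restored by gene ID.

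The 19006 genes that reached a normalized count of 1 in 6 or more libraries were tested on log2(value + 1) by limma 3.58.1 (R 4.3.3, intensity trend, Benjamini-Hochberg adjustment, threshold 0.05). Members, lists and alternatives (among them the number-set term) were chosen with earlier results of these data known; all members are named, with pathway genes that passed either fit and up to 4 more by p. Same-numbered livers were set side by side as pairs, a choice that the labels do not give. They correlated at 0.150 to 0.478 in their deviations from group means. Those deviations keep the difference between the number sets, so the correlations do not show a pairing. Only VPA_OCA numbers 1 and 3 correlated best with their own number, and the best VPA partner of every VPA_OCA liver lay in its own number set, so pairs and sets are not told apart. The 30 pairs of libraries within groups differed by 18.7 to 202 times the sampling variance, so none was a duplicate. On simulated data for VPA_OCA over VPA with 19085 genes, 38.8% of 1.5-fold, 70.1% of 2-fold and 98.5% of 4-fold changes were recovered, with 7 false calls among 145. Figures were drawn with matplotlib 3.10.9.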

Additional observations from a re-analysis of the deposited data

Results flagged for a closer look

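Of 32 groups of 6 livers checked for a single liver far from the rest, 6 were marked. The check used normalized counts without logs, and its level of 1 in 20 holds for normally distributed values. The groups also share livers, so 6 of 32 was not shown to exceed chance. Members account for 3 of the 6. Gpam measured 5800 normalized counts in VPA replicate 4, with the other VPA livers between 1820 and 2579. Pnpla3 measured 1555 in the same liver, with the others between 187 and 406. Dgat1 measured 430.1 in VPA replicate 2, with the other VPA livers between 531 and 577. Among the other pathway genes, Lpin3 measured 167.3 in VPA replicate 4 against 61.2 to 87.3 in the other VPA livers. Abhd5 measured 1442 in VPA_OCA replicate 6, with the other VPA_OCA livers between 632 and 929, and 799 in VPA replicate 4, with the other VPA livers between 584 and 663. VPA replicate 4 is also the liver with the highest skeletal muscle marker sum (437), and the part of that in these values was not tested.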

How the results depend on the processing

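The count of genes past the threshold was 137 with treatment alone. It was 210 with the replicate block, 404 with the number-set term and 419 with that term and a GC correction. At adjusted p thresholds of 0.10 and 0.01 it was 223 and 62. With 1 liver left out it ran from 92 to 146, and from 230 to 446 with the number-set term, an alternative chosen after the data were seen. The 10 members gave 410 values under alternatives, of which 385 kept their direction and side of the threshold. Mogat1 accounts for the 20 that crossed to passing, among them array weights (limma adjusted p = 0.0414), a minimum of 10 normalized counts (0.0445) and a GC correction (0.0491). It did not pass without a filter (0.0870), without the trend (0.0995) or on FPKM values (0.0563). The replicate block changed the call of no other member. The other 5 values reversed: Gpam gave -0.11 without VPA_OCA replicate 6, and with the number-set term -0.015 without VPA replicate 6, -0.050 without VPA_OCA replicate 3 and -0.052 without VPA_OCA replicate 6, in a range of -0.11 to 0.35 with 1 liver left out, and Mogat2 gave -0.040 in numbers 1 to 3 only. With 1 liver left out, the log2 difference between numbers 4 to 6 and 1 to 3 ran from 0.61 to 0.95 for Gpam and from 1.18 to 1.93 for Pnpla3, also chosen after the data were seen. The cause was not tested. With 6 livers per group, many 1.5-fold changes lay below detection in simulation, and Mogat1 and Mogat2 rest on fewer reads than the other members, so their values carry the widest counting error among the members.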
